A study of Mus musculus with 12 samples.

Results

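The Ly6 genes encode small, cysteine-rich proteins that are held on the outer face of the plasma membrane by a glycosylphosphatidylinositol (GPI) anchor, and many of them lie side by side in a cluster on mouse chromosome 15. Immunologists know several of them as surface antigens. Ly6a (Sca-1) marks blood stem cells and rises on activated and interferon-treated T cells, Ly6e (thymic shared antigen 1) is found on thymocytes and lymphocytes and restricts entry of some viruses, Ly6c1 and Ly6c2 together give the Ly-6C antigen of monocytes and memory T cells, and Ly6d (ThB) marks B-lineage progenitors and some epithelia. The data below follow 5 listed Ly6 genes (Ly6a, Ly6e, Ly6c1, Ly6c2 and Ly6d) of 56691 genes in the count table, and all 5 were among the 15138 genes whose reads in the 12 samples added up to 30 or more. The 5 genes were chosen by name from this family with results of these samples already known, so the changes below describe these mice and the choice is not independent of them.

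The samples were responding CD4+ T cells sorted from spleens of Tg4 Nr4a3-Tocky Il10-GFP mice of both sexes, typically 6 to 8 weeks old, which carry a transgenic T cell receptor for a myelin basic protein peptide, a fluorescent timer that reports Nr4a3 transcription and a green reporter of Il10. All mice received 4 mg/kg [4Y]-MBP peptide under the skin, were given 0.5 mg of antibody by intraperitoneal injection 24 h later, received 0.4 mg/kg peptide after a further 30 min and were killed 12 h after that. The 4 groups of 3 mice differed in the antibody: an isotype pool of rat IgG1 and IgG2a, anti-Lag3, anti-PD-L1, or both blocking antibodies together (combination blockade, CB). Cells were sorted as CD4+ and positive for both the new and the matured form of the timer, so each library holds cells that had responded to the peptide. Mice were sorted in batches of 4, and each condition was stained with a CD4 antibody of another colour before the sort, and this difference cannot be told apart from the treatment. RNA was counted by 3′ end sequencing, in which a transcript gives a read near its poly(A) tail whatever its length, and 16449370 to 22151025 reads per sample lay on genes. Values are CPM, the reads of a gene per 1000000 reads of its library after TMM scaling.

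The cluster lies on chromosome 15 of GRCm38, and the positions are those of the GENCODE M21 annotation. Ly6d (ENSMUSG00000034634) spans chr15:74762056-74763620 on the minus strand and Ly6e (ENSMUSG00000022587) spans chr15:74955051-74959905 on the plus strand. Ly6a (ENSMUSG00000075602), Ly6c1 (ENSMUSG00000079018) and Ly6c2 (ENSMUSG00000022584) lie on the minus strand at chr15:74994877-74998031, chr15:75044018-75048830 and chr15:75108158-75111970. By that annotation, no other gene of the count table overlaps any of the 5, on either strand.

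Ly6c1 and Ly6c2 are near copies, which limits what can be read from their counts. In the main annotated transcripts their coding parts are 97.7% identical, with 9 mismatches in 396 aligned bases and no gaps, and the last 500 transcript bases, from which 3′ reads come, are 95.5% identical. The last coding bases of the 2 genes (positions 322 to 396 of each coding sequence, GRCm38) are shown to make this visible, with the bases that differ in capitals.
Ly6c1: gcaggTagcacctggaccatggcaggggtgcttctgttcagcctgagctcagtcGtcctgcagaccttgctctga
Ly6c2: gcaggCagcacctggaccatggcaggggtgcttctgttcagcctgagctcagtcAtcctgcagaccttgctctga
Of 426 possible 75-base reads in the last 500 bases of Ly6c1, 50 (11.7%) are found letter for letter in Ly6c2, and the share rises to 20.0% for 50-base reads. Only uniquely mapped reads were counted, so an identical read was lost from both genes and a read that crosses few of the differences could be placed on the wrong copy by a sequencing error. For Ly6a, 0 of 426 75-base reads and 20 of 451 50-base reads (4.4%) occur in another annotated transcript, and for Ly6e and Ly6d none do at either length.

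The promoters of these near copies are less alike than their transcripts. The windows from 250 bases before to 50 bases after the annotated start, as RefSeq gives them for GRCm38.p6 on the minus strand, are at chr15:75048788-75049087 for Ly6c1 and chr15:75111922-75112221 for Ly6c2. They aligned over 282 columns with 73.8% identity, 58 mismatches and 16 gap columns. Capitals mark bases that differ from, or have no partner in, the other window.
Ly6c1: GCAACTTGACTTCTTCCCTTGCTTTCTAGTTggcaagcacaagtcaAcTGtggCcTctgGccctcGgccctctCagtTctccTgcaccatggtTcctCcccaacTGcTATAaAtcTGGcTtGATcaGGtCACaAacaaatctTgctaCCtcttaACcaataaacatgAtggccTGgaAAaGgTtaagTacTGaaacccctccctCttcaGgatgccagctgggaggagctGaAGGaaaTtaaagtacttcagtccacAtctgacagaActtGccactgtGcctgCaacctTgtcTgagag
Ly6c2: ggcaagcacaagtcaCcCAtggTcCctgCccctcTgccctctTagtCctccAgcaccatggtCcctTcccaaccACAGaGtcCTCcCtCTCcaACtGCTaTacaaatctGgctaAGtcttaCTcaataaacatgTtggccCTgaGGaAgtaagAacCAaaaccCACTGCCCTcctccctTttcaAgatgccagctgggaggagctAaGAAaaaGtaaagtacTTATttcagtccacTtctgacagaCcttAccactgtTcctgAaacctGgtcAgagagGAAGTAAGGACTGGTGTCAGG
Neither window holds the pattern TTCNNNGAA, the palindromic element through which interferon-gamma acts on many promoters, which 8.3% of 32851 promoter windows hold. Of the 5 genes, 2 had a window in the table used.

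Ly6a and Ly6e were the abundant members. Over the 12 samples Ly6e had 140588 reads and Ly6a 140036, which put them at positions 163 and 166 of 15138 genes by mean CPM. Ly6c2 (5679 reads), Ly6c1 (2696 reads) and Ly6d (812 reads) followed at positions 5094, 7024 and 9241. The 50 annotated genes of the count table from Psca to Gpihbp1, a stretch of 884.6 kb, held 297536 reads. Of these, 94.3% were on Ly6a and Ly6e and 97.4% on the 5 genes. At the level of RNA, most Ly6 reads of these responders were thus on Ly6a and Ly6e. Ly6c2 and Ly6c1 were far lower, at means of 24.65 and 11.5 CPM, and reads that these copies share were not counted.

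Ly6a was higher under every blocking regimen. Its level was 449.7, 488 and 487 CPM in the 3 isotype mice, 569.7, 556 and 591 CPM under anti-Lag3, 638, 792 and 634 CPM under anti-PD-L1, and 685, 649 and 684 CPM under CB. All 9 mice given a blocking antibody lay above all isotype mice. The anti-Lag3 mice lay below all mice of the groups that received anti-PD-L1, and the anti-PD-L1 and CB mice overlapped. How many of all genes separate between groups given blocking antibodies was not counted, so nothing is read from that order. The group means were 475 ± 22.0, 572 ± 17.3, 688 ± 89.9 and 673 ± 20.5 CPM (SD, n = 3). Against isotype, the log2 fold change was 0.50 under CB (SE 0.09, edgeR quasi-likelihood adjusted p = 0.00106) and 0.53 under anti-PD-L1 (SE 0.09, edgeR adjusted p = 0.0142), both of which passed the threshold of 0.05. Under anti-Lag3 the log2 fold change was 0.27 (SE 0.09, unadjusted p = 0.006 in the edgeR fit), which did not pass over all genes (edgeR adjusted p = 0.805).

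For Ly6a, CB and anti-PD-L1 differed by −0.03 on the log2 scale (95% interval −0.22 to 0.15, edgeR adjusted p = 0.998). CB was 0.23 above anti-Lag3 (interval 0.05 to 0.42, edgeR adjusted p = 0.346) and anti-PD-L1 was 0.27 above anti-Lag3 (interval 0.08 to 0.45, edgeR adjusted p = 0.802), so neither passed. The interaction of the antibodies, that is the change under CB less the sum of the changes under each antibody, was −0.30 (interval −0.56 to −0.04, edgeR adjusted p = 0.803). The Ly6a call between anti-PD-L1 and isotype was lost without isotype mouse 1 (log2 fold change 0.49, edgeR adjusted p = 0.177), isotype mouse 2 (0.55, edgeR adjusted p = 0.0749) or anti-PD-L1 mouse 2 (0.42, edgeR adjusted p = 0.198). The call between CB and isotype held without each of the 12 samples in turn (edgeR adjusted p = 0.000318 to 0.0109).

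**Figure D1:**
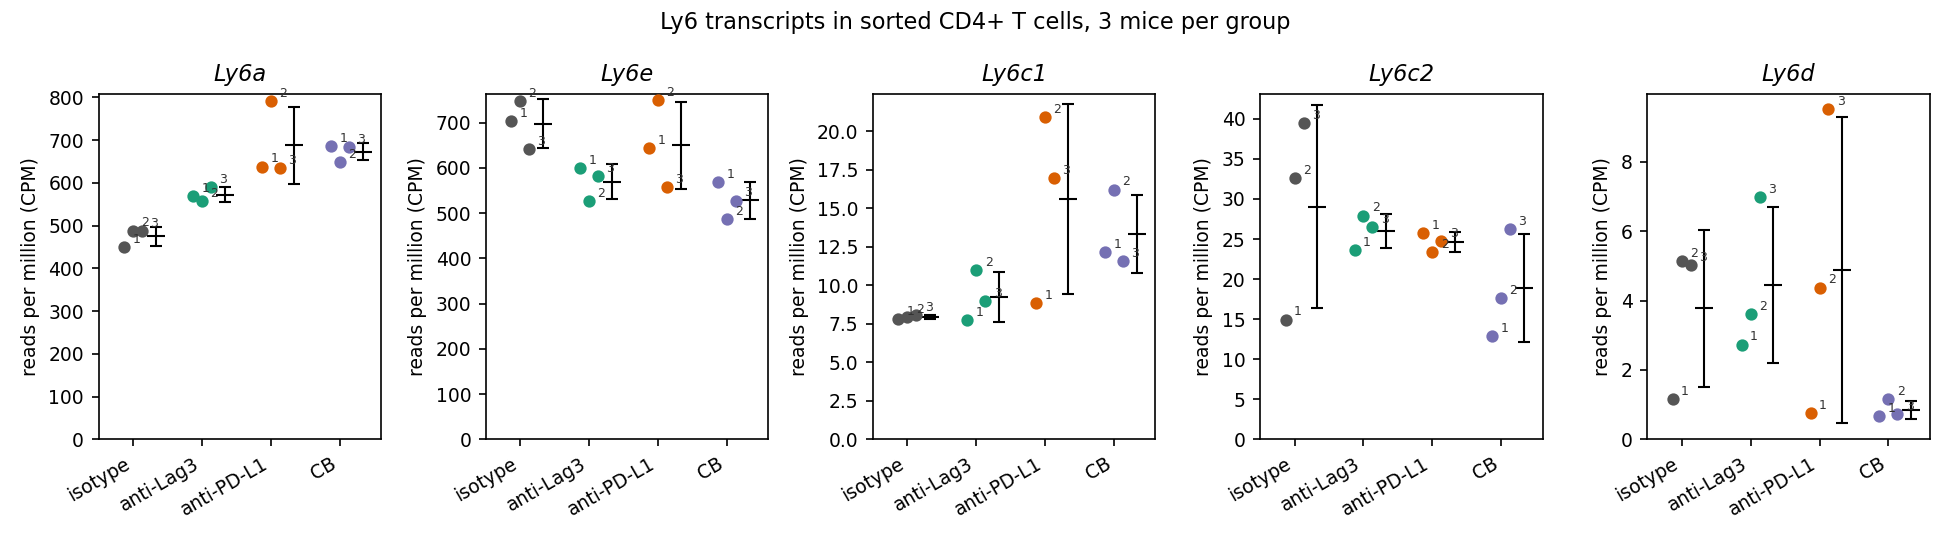
Each panel plots the CPM of a Ly6 gene (y axis, from 0) in the 12 samples by group, with the replicate number beside each point and the mean ± SD to its right. Ly6a climbed from 450 to 488 CPM in isotype mice to 634 CPM and more in the anti-PD-L1 and CB mice, whereas Ly6e was lower in CB than in isotype mice and Ly6d was under 1.2 CPM in all 3 CB mice.

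Ly6e, the other abundant gene, went the opposite way in CB. Its level was 704, 748 and 641 CPM in the isotype mice, 599.7, 527 and 582 CPM under anti-Lag3, 644, 749 and 557 CPM under anti-PD-L1, and 569, 487 and 528 CPM under CB. All CB mice and all anti-Lag3 mice lay below all isotype mice, while the anti-PD-L1 mice spanned the isotype range, from beneath it to just above it. The group means were 698 ± 53.5, 570 ± 38.1, 650.1 ± 96.4 and 528 ± 41.0 CPM (SD, n = 3). Ly6e fell by 0.40 on the log2 scale in CB against isotype (SE 0.0999, edgeR adjusted p = 0.0161). The log2 difference from isotype was −0.29 under anti-Lag3 (SE 0.0998, edgeR adjusted p = 0.805) and −0.10 under anti-PD-L1 (SE 0.0997, edgeR adjusted p = 0.828), and neither passed. CB was lower than anti-PD-L1 by a log2 difference of −0.30 (interval −0.51 to −0.09, edgeR adjusted p = 0.273) and differed from anti-Lag3 by −0.11 (interval −0.31 to 0.10, edgeR adjusted p = 0.813). The Ly6e interaction was −0.01 (interval −0.30 to 0.28, edgeR adjusted p = 1). The call in CB was lost without isotype mouse 1, isotype mouse 2, CB mouse 2 or CB mouse 3, with log2 fold changes of −0.40, −0.35, −0.35 and −0.40 and edgeR adjusted p = 0.0528, 0.102, 0.0869 and 0.0661. It did not pass when the change was tested against 0.2 in place of 0.

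Between them, Ly6a and Ly6e changed places. A ratio of reads within a library needs no scaling between libraries. Ly6a gave 0.639, 0.653 and 0.760 reads per Ly6e read in the isotype mice and 1.20, 1.33 and 1.30 in the CB mice. The anti-Lag3 mice (0.950, 1.06 and 1.01) and the anti-PD-L1 mice (0.990, 1.06 and 1.14) lay between them and overlapped each other. The means were 0.684 ± 0.0662, 1.01 ± 0.0535, 1.06 ± 0.0744 and 1.28 ± 0.0662 (SD, n = 3) in the order isotype, anti-Lag3, anti-PD-L1 and CB. Ly6e was thus the more counted transcript in all isotype mice and Ly6a in all CB mice. The ratio was formed after the values of both genes were known and is given as a description without a test.

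**Figure D2:**
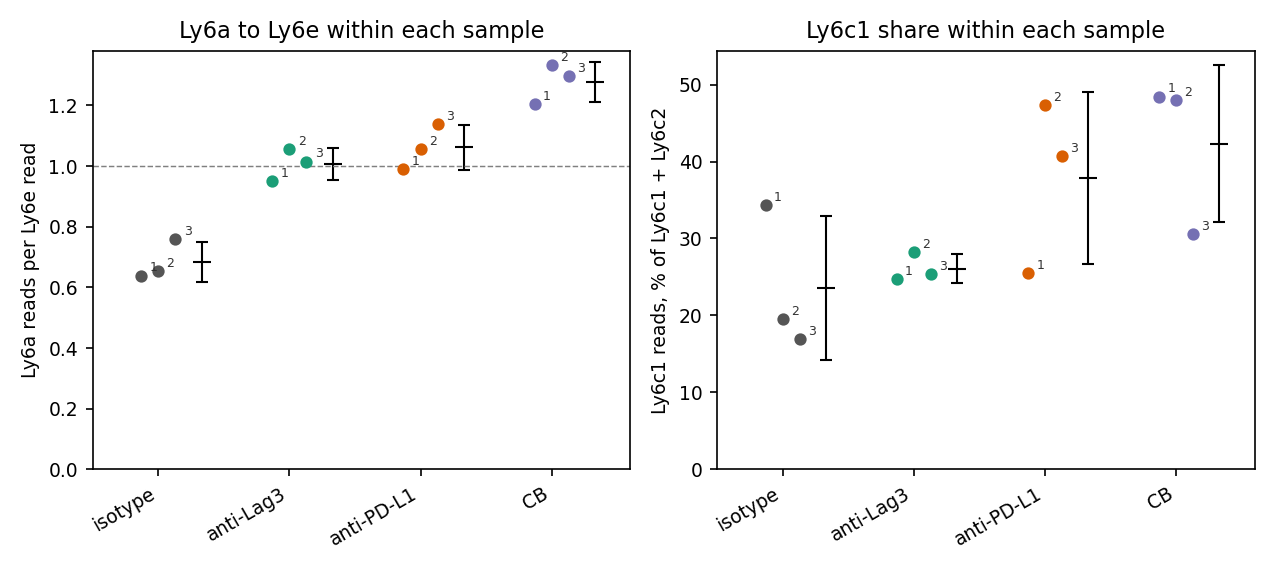
The left panel plots Ly6a reads per Ly6e read and the right panel the Ly6c1 share of Ly6c1 and Ly6c2 reads (%), for each sample by group, with the replicate number at each point, mean ± SD to its right and a dashed line at equal reads on the left. The isotype mice lie at 0.639 to 0.760 and the CB mice at 1.20 to 1.33 on the left, with no overlap with any other group. On the right CB lies above anti-Lag3, and all other pairs of groups overlap.

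Ly6c1 was low, and its mean lay above isotype under each antibody without passing the test. It had 7.80, 7.92 and 8.05 CPM in the isotype mice, 7.74, 11.0 and 8.98 CPM under anti-Lag3, 8.83, 20.9 and 17.0 CPM under anti-PD-L1, and 12.2, 16.2 and 11.6 CPM under CB, from 125 to 373 reads per library. The CB and anti-PD-L1 mice all lay above the isotype mice, although anti-PD-L1 mouse 1 was only just above them. The log2 fold change was 0.75 in CB (SE 0.358, edgeR adjusted p = 0.327), 0.98 under anti-PD-L1 (SE 0.359, edgeR adjusted p = 0.494) and 0.22 under anti-Lag3 (SE 0.358, edgeR adjusted p = 1), and none passed.

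Ly6c2 was lower in CB than in isotype on average, with overlap. Its level was 14.95, 32.6 and 39.5 CPM in the isotype mice, 23.6, 27.9 and 26.5 CPM under anti-Lag3, 25.8, 23.3 and 24.8 CPM under anti-PD-L1, and 12.9, 17.6 and 26.3 CPM under CB. The isotype mice spanned the values of the anti-Lag3 and anti-PD-L1 mice. The mouse with number 1 was the lowest in the isotype, anti-Lag3 and CB groups and the highest under anti-PD-L1. The log2 difference from isotype was −0.61 in CB (SE 0.294, edgeR adjusted p = 0.327), −0.24 under anti-PD-L1 (SE 0.293, edgeR adjusted p = 0.899) and −0.16 under anti-Lag3 (SE 0.293, edgeR adjusted p = 1), and none passed. The Ly6c2 value in CB was −0.93 without isotype mouse 1 or CB mouse 3, −0.33 without isotype mouse 3 and −0.40 without CB mouse 1.

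Because reads can be lost from or misplaced between the copies, the Ly6c genes were also counted as a single feature. The summed counts differed between CB and isotype by −0.20 on the log2 scale (SE 0.233, edgeR adjusted p = 0.802) and between anti-PD-L1 and isotype by 0.12 (SE 0.233, edgeR adjusted p = 0.964). Ly6c1 took 34.3%, 19.5% and 16.9% of the Ly6c1 and Ly6c2 reads in the isotype mice and 48.4%, 47.9% and 30.6% in the CB mice, which overlapped. The share was 24.7% to 28.2% under anti-Lag3, below all CB mice, and 25.5% to 47.3% under anti-PD-L1.

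Ly6d was near the floor of the libraries and lowest in CB. It had 1.16, 5.13 and 5.03 CPM in the isotype mice, 2.73, 3.61 and 6.99 CPM under anti-Lag3, 0.755, 4.38 and 9.51 CPM under anti-PD-L1, and 0.681, 1.15 and 0.738 CPM under CB. The CB values came from 13, 24 and 16 reads, and each was below the lowest isotype value, although CB mouse 2 (1.154 CPM) and isotype mouse 1 (1.157 CPM) were almost level. The log2 difference from isotype was −2.13 in CB (SE 0.896, edgeR adjusted p = 0.233), 0.37 under anti-PD-L1 (SE 0.851, edgeR adjusted p = 0.976) and 0.24 under anti-Lag3 (SE 0.851, edgeR adjusted p = 1), and the CB level was 2.50 log2 units under anti-PD-L1 in the fit (log2 difference −2.50, SE 0.906, edgeR adjusted p = 0.334). None passed. The mouse with number 1 was the lowest of its group in every group, at 0.681 to 2.73 CPM, and whether the numbers mark sorting batches is not given in the sources used here.

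**Figure D3:**
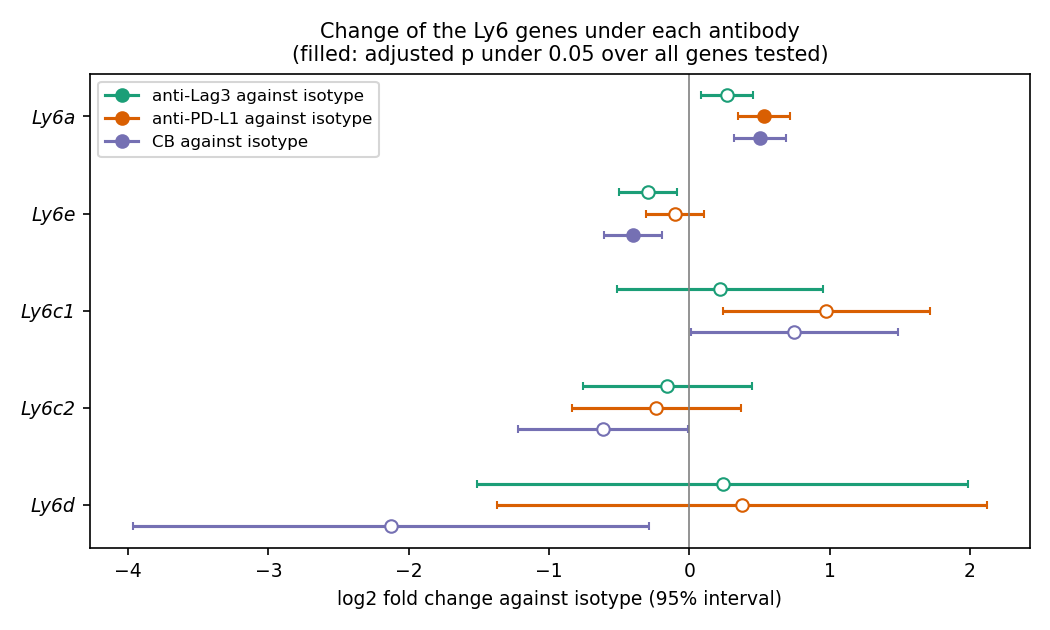
Points give the log2 fold change of each Ly6 gene against isotype (x axis) with its 95% interval, for anti-Lag3, anti-PD-L1 and CB, and filled points passed an edgeR adjusted p of 0.05 over all genes. The filled points are Ly6a at 0.53 and 0.50 and Ly6e at −0.40, and the intervals of Ly6d reach from −3.97 to 2.12.

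Set against all genes, 2 of the 5 passed between CB and isotype (Ly6a higher, Ly6e lower), where 4.29% of all genes tested did (353 higher and 296 lower). Between anti-PD-L1 and isotype, Ly6a was among only 5 genes that passed, 0.0330% of those tested. It was at position 3 by p there, with the metallothioneins Mt1 and Mt2, the chemokine receptor Ccr6 and the pyrophosphatase Ppa1 as the others. For anti-Lag3 against isotype 0% of all genes passed in edgeR, with 788 at an unadjusted p under 0.05, and 8 passed in DESeq2. None of the 5 Ly6 genes passed in edgeR or DESeq2 between CB and anti-PD-L1, where 0.370% of all genes passed in edgeR, or between CB and anti-Lag3, where 0.694% did. Between anti-PD-L1 and anti-Lag3 and for the interaction, 0% of all genes passed in edgeR, with 710 and 898 at an unadjusted p under 0.05, against 10 and 5 that passed in DESeq2. In each of these 5 comparisons without a Ly6 call, 2 of the 5 genes had an unadjusted p under 0.05. Of all 15138 genes, 2256 had such a p between CB and isotype and 1187 between anti-PD-L1 and isotype. The numbers were 1374 between CB and anti-PD-L1 and 1432 between CB and anti-Lag3. Counts at an unadjusted p under 0.05 in the lists below are to be set against these. The comparisons share groups and are not independent of each other.

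The groups did not overlap between CB and isotype for 4 of the 5 genes (Ly6a and Ly6c1 above, Ly6e and Ly6d below), as for 20.0% of all genes. Between anti-PD-L1 and isotype 2 did not overlap (Ly6a and Ly6c1 above, against 11.8% of all genes), and between anti-Lag3 and isotype 2 did not (Ly6a above and Ly6e below, against 10.1%). Since the genes were chosen with such values known, nothing is read from these shares.

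The rest of the Ly6 cluster had few reads. Of 17 further cluster genes, 16 were matched by name and 6 had enough reads to test, of which 0 passed between CB and isotype in edgeR or DESeq2 (2 at an unadjusted p under 0.05), and 0 under anti-PD-L1 or anti-Lag3 against isotype. Ly6k, which had 808 reads and so nearly as many as Ly6d, had 1.17 ± 0.680 CPM in isotype and 5.11 ± 3.89 CPM in CB mice (SD, n = 3, log2 fold change 2.13, SE 0.834, edgeR adjusted p = 0.185). Ly6i had 0.338 ± 0.585 and 0.962 ± 0.806 CPM. Lynx1, which modulates nicotinic receptors in brain, was listed at 0 in all isotype mice and had 0.103 ± 0.140 CPM in CB. Ly6g, the neutrophil antigen, had 5 reads in all 12 samples. Of 19 genes with a related domain on other chromosomes, 5 could be tested and 0 passed between CB and isotype in edgeR or DESeq2 (0 at an unadjusted p under 0.05). The most read of them were Ly6g5b (273 reads), Lypd6b (166) and Plaur, the urokinase receptor (102).

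The enzymes that build and remodel the GPI anchor gave no calls in edgeR. Of 28 assembly and remodelling genes tested, 0 passed between CB and isotype in edgeR (2 at an unadjusted p under 0.05, and 1 passed in DESeq2), 10 lay above and 18 below 0, and the median log2 fold change was −0.09 against 0.00 for all genes. The most read were Dpm3 (91.5 ± 9.44 and 77.4 ± 17.4 CPM in isotype and CB), Pigt (67.6 ± 12.1 and 62.1 ± 15.7 CPM) and Pigx (52.1 ± 11.5 and 50.3 ± 7.86 CPM), each mean ± SD of 3 mice.

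Other GPI-anchored proteins of lymphocytes went in both directions, as Ly6a and Ly6e did. Of 10 tested, 1 rose and 3 fell in CB against isotype, where 4.29% of all genes passed (353 higher and 296 lower), and the median log2 fold change was −0.51 against 0.00 for all genes. Cd52, the target of alemtuzumab, fell from 1336 ± 37.0 to 918 ± 36.3 CPM (log2 fold change −0.54, SE 0.071, edgeR adjusted p = 2.72e-05). Thy1, the pan-T-cell antigen, fell from 588 ± 34.5 to 421 ± 54.8 CPM (−0.48, SE 0.101, edgeR adjusted p = 0.00439), and Izumo1r, the folate receptor 4 of regulatory and anergic T cells, from 52.8 ± 11.5 to 26.8 ± 5.31 CPM (−0.98, SE 0.20, edgeR adjusted p = 0.00339). Bst2 (tetherin), which is interferon-inducible and holds budding viruses at the membrane, rose from 31.5 ± 8.40 to 68.8 ± 16.7 CPM (1.13, SE 0.211, edgeR adjusted p = 0.00163). Cd48, Art2b and Cd24a had log2 fold changes of −0.07, −1.44 and 0.60 and did not pass in edgeR (edgeR adjusted p = 0.947, 0.0567 and 0.397). Art2b was thus just over the threshold. In DESeq2, 5 of the 10 passed between CB and isotype. None of the 10 passed in edgeR or DESeq2 for anti-PD-L1 or anti-Lag3 against isotype (medians −0.19 and −0.18). An unadjusted p under 0.05 was held by 4 and 2 of them, against 1187 and 788 of all 15138 genes.

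Ly6a and Ly6e are both known as interferon-inducible, and genes of that response were set beside them. Of 25 interferon-response genes tested, 4 rose in CB against isotype and 0 fell, 19 lay above 0, and the median log2 fold change was 0.32, against 4.29% of all genes that passed and a median of 0.00 for all genes. Those that rose were Isg15, a ubiquitin-like modifier (1.30, SE 0.201, edgeR adjusted p = 0.000194), the GTPases Igtp (0.94, SE 0.141, edgeR adjusted p = 0.000143) and Gbp2 (1.44, SE 0.278, edgeR adjusted p = 0.00203), and Ifi35 (0.83, SE 0.199, edgeR adjusted p = 0.0125). The most read others, the immunoproteasome subunits Psmb8 and Psmb9 and Ifi27l2a, differed by −0.05, −0.04 and −0.09 and did not pass. None of the 25 passed in edgeR for anti-PD-L1 or anti-Lag3 against isotype, and 1 in each passed in DESeq2. An unadjusted p under 0.05 was held by 9 and 7 of them, against 1187 and 788 of all 15138 genes. In these comparisons 23 and 22 of the 25 lay above 0, with medians of 0.24 in both. The log2 fold change of Ly6a was thus above 0 in each comparison, as for most of these genes, and that of Ly6e below 0. For Ly6e only the change in CB passed, and under anti-PD-L1 it was −0.10 (95% interval −0.31 to 0.10) with overlap of the groups. For Ly6a the change under anti-Lag3 did not pass.

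**Figure D4:**
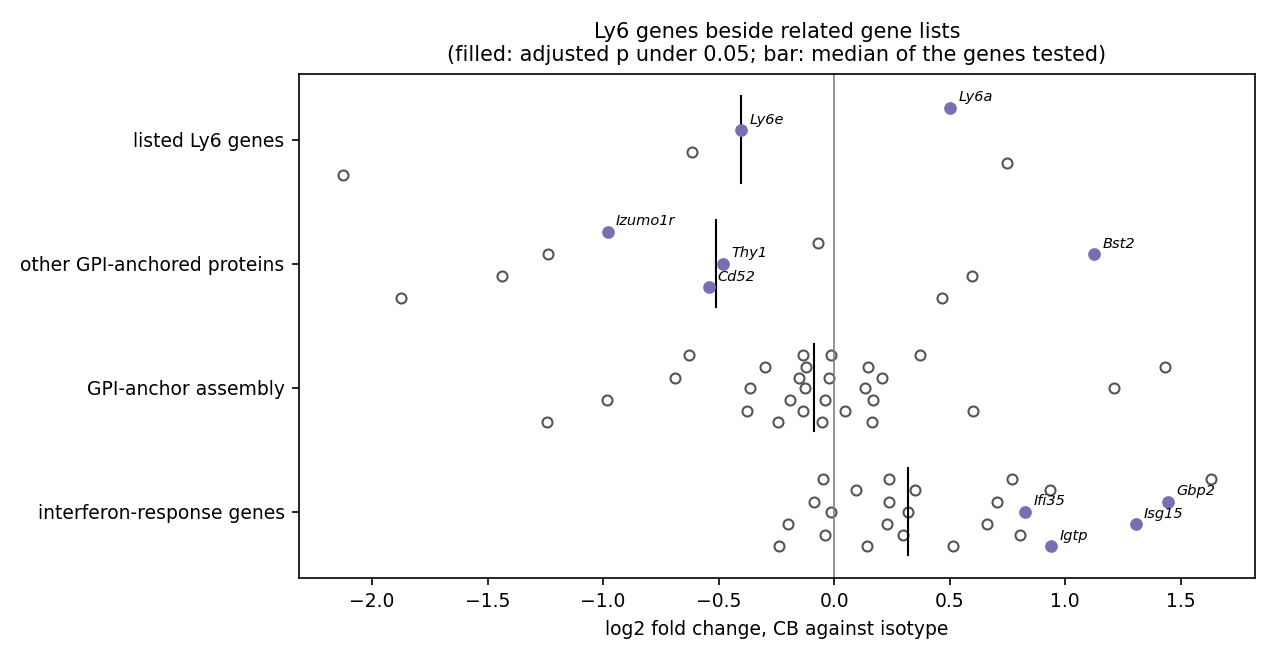
Each point is the log2 fold change (x axis) of a gene between CB and isotype, by list, with the genes that passed the edgeR test filled and named and a bar at the list's median. In the Ly6 and GPI-anchored lists genes that passed lie on both sides of 0, in the interferon list they all lie above it, and no GPI-assembly gene passed. Points are spread vertically only to separate them.

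Genes whose levels followed the Ly6 genes most closely over the 12 samples were sought among 7348 genes with a mean of at least 10 CPM, as a description. For Ly6a the highest Pearson correlations of log2 CPM were with Traf2 (0.94), Wdr55 (0.92), Grwd1 (0.89), Naa38 (0.89) and Calr (0.88), and the lowest with Srpk2 (−0.95), Ncapg2 (−0.91) and Bag6 (−0.90). For Ly6e they were Rps26 (0.94), Vasp (0.92), Sh3bgrl3 (0.92), Spata13 (0.90) and Nsmce1 (0.90) against Rbm25 (−0.93), Rab11fip1 (−0.91) and Cdk11b (−0.91). Ly6c1 was closest to Zdhhc16 (0.92) and Esco1 (0.90), Ly6c2 to Carmil2 (0.89) and Cd74 (0.85), and Ly6d to Kif18a (0.94) and Tshz1 (0.90). Among the 5 genes themselves, Ly6a and Ly6c1 had r = 0.79 and Ly6c2 and Ly6d r = 0.59, while Ly6a and Ly6e had r = −0.28 and Ly6c1 and Ly6c2 r = −0.26. The 12 points share the 4 treatments, and the named genes are the extremes of 7348 compared.

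Several Ly6 genes also mark cells other than CD4+ T cells, so the markers of those cells were summed per library. In bulk RNA, fewer cells of a type and less RNA per cell cannot be told apart. The 7 CD4 T cell markers were present in all samples, at 2223 to 2392 CPM in isotype and 1954 to 2139 CPM in CB mice, and 2 of them, Cd4 and Cd3e, fell in CB (log2 fold changes −0.50 and −0.39, edgeR adjusted p = 0.00918 and 0.0401). The 4 endothelial markers, a cell type rich in Ly6a, Ly6c1 and Ly6e, summed to 77.8 to 87.6 CPM in isotype, 68.8 to 99.35 under anti-Lag3, 59.2 to 68.4 under anti-PD-L1 and 39.5 to 60.8 CPM in CB. In CB the sum was thus lower, as Ly6e was, while the means of Ly6a and Ly6c1 were higher. Of that list 1 gene passed, Pecam1, which T cells also express, and it fell by 0.90 on the log2 scale (edgeR adjusted p = 0.0034), while Cdh5 and Kdr were at 0.823 CPM or less in every group mean. Egfl7, the next most read of the list, had 6.10 ± 3.42 CPM in isotype and 6.97 ± 2.07 CPM in CB (SD, n = 3) and did not pass. The part of these markers in the Ly6 levels was not tested.

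The 8 monocyte and neutrophil markers, cells that carry Ly-6C and Ly6g, summed to 5.77 to 12.6 CPM in isotype, 6.34 to 11.9 under anti-Lag3, 14.5 to 22.8 under anti-PD-L1 and 4.45 to 11.8 CPM in CB, with Cd14 at 0 in all samples. The sum was higher in the anti-PD-L1 mice, where the mean of Ly6c1 was highest, and not in CB. Lyz2 (1.56 CPM in isotype and 7.88 under anti-PD-L1), S100a8 (0 and 2.50) and S100a9 (0.275 and 2.42) had the higher means, while 4 of the 7 markers tested lay below isotype and the median log2 fold change was −0.05 against 0.00 for all genes. Within the anti-PD-L1 group, mouse 1 had the highest sum, 22.8 CPM, and the lowest Ly6c1, 8.83 CPM. The part of these markers in the Ly6c1 level was not tested. The B cell markers summed to 362 to 425 CPM in isotype and 324 to 401 CPM in CB, nearly all of it Ighm. Ms4a1, the next most read, had 3.93 ± 2.01 CPM in isotype, 6.99 ± 2.05 under anti-PD-L1 and 1.83 ± 2.28 in CB (SD, n = 3). In CB, 5 of the 7 B cell markers lay below isotype and 2 above. The plasmacytoid dendritic cell markers, another cell type with Ly6d, summed to 36.6 to 45.1 CPM in isotype and 31.9 to 57.2 CPM in CB. Most of the dendritic cell sum was Pacsin1 (means of 32.0 and 36.8 CPM in isotype and CB), with Spib, the next most read, at 3.78 and 2.48 CPM. The CD8 T cell and NK cell markers summed to 41.6 to 47.3 CPM in isotype and 27.6 to 36.5 CPM in CB. Most of that sum was Cd8b1 (means of 42.0 and 29.7 CPM), with Cd8a at 0.772 and 0.402 CPM. No gene of the monocyte, B cell, dendritic cell or CD8 and NK cell lists passed between CB and isotype in edgeR or DESeq2 (3, 0, 0 and 1 at an unadjusted p under 0.05). The 4 erythroid markers summed to 158 to 307 CPM in isotype and 113 to 145 CPM in CB, with 1 gene lower (Hbb-bs, log2 fold change −0.75, edgeR adjusted p = 0.00509). The part of these differences in the Ly6 values was not tested.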

How the data were processed

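The deposited table holds read counts per gene for 12 samples. According to the methods, the authors trimmed reads with Cutadapt 1.18, mapped them to GRCm38 with STAR 2.6.1a and counted uniquely mapped reads with featureCounts 1.6.4. The annotation release and strand setting are not given in the sources used here. Libraries were QuantSeq 3′ libraries without molecular identifiers, so reads are not independent molecules. A second deposited table of rlog values was not used. Here, 114 spike-in rows were left out, gene names came from GENCODE M21, and genes with at least 30 reads over all samples were fitted in edgeR 4.0.16 (R 4.3.3, TMM, quasi-likelihood test, 4 group means, Benjamini-Hochberg over 15138 genes, threshold 0.05). Intervals use the t quantile of that fit. CPM use TMM library sizes, and likeness used log2 CPM with a prior count of 2. Alternatives included DESeq2 1.42.0. The p-values set each change against the spread between mice, with 3 mice per group. That spread was estimated over all 12 samples in 1 fit, with information shared between genes. The members and lists were chosen with earlier results of these data known. The genes named are the 5 Ly6 genes, list members that passed between CB and isotype with up to 3 others of most reads, and the genes most and least alike in level. Ly6g, Cdh5, Kdr, Cd14, Ighm and the genes that passed under anti-PD-L1 were named after their values were seen. The fit was first tested on simulated counts with known changes between CB and isotype. Among changed genes with a mean of at least 10 CPM, it recovered 3 of 38 log2 changes of 0.5. It recovered 17 of 27 changes of 1 and 35 of 35 changes of 2, with 6 false calls over all genes. Changes of 0.5 were thus seldom recovered in the simulation, and a gene that did not pass can still have changed. The simulation changed 200 genes, fewer than the 649 that passed between CB and isotype, so its adjusted threshold was stricter. The 38 genes pool all levels from 10 CPM upward, so their share does not describe genes as abundant as Ly6a and Ly6e. These shares come from 1 draw of the counts. An earlier draw recovered a smaller share of the changes of 1, so the shares are imprecise. The limit of 10 CPM was set after a first check over all changed genes had failed. Over all 200 changed genes, the draw given here recovered 56. Part of the sorting gate is not reported here.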

Additional observations from a re-analysis of the deposited data

How the results depend on the processing

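Over 35 values of a Ly6 gene in a comparison, 688 of 716 alternative values kept their direction and side of the threshold, 11 kept the direction but no longer passed and 17 changed sign, 16 of them with a sample left out. Between CB and isotype 2 Ly6 genes passed. With the change tested against 0.2, 1 passed, in edgeR as in DESeq2, and 1 to 2 did without each sample in turn. Between anti-PD-L1 and isotype 1 passed, with 0 against 0.2 in either tool and 0 to 1 without each sample in turn. The stricter null and the smaller groups are part of those settings. In the other comparisons 0 Ly6 genes passed under any alternative. Leaving out a sample turned the sign of uncalled log2 values, over these ranges: against isotype, Ly6c2 −0.55 to 0.049 and Ly6d −0.55 to 0.88 under anti-PD-L1, Ly6c2 −0.47 to 0.13 and Ly6d −0.25 to 0.52 under anti-Lag3. CB less anti-PD-L1 gave −0.088 to 0.081 for Ly6a and −0.51 to 0.043 for Ly6c1, anti-PD-L1 less anti-Lag3 gave −0.79 to 0.64 for Ly6d, and the interaction gave −0.53 to 0.10 for Ly6c2 and −0.11 to 0.11 for Ly6e. The cause was not tested.

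Same-numbered samples of different groups had correlated deviations of −0.0387 to 0.301 over genes (18 pairs, median 0.129, 11 over 0.1, all pairs of number 1 among them). Different numbers had a median of −0.0626 (36 pairs, 4 over 0.1). For 4 of 12 samples, the best correlation was with the own number in every other group. Mice were sorted in batches of 4, with a CD4 colour for each of the 4 conditions. The paper ascribes component 2 of its principal component analysis largely to the sorting batch. The sources used here do not tie a number to a batch and not every pair was over 0.1. The numbers were therefore not taken as pairs, and the main fit holds no batch term. With a replicate block, 2 Ly6 genes passed between CB and isotype and 1 between anti-PD-L1 and isotype (Ly6a 0.53, edgeR adjusted p = 0.000623), and no call on a Ly6 gene changed. Ly6d between anti-PD-L1 and anti-Lag3 turned from 0.14 to −0.22 with the replicate block. Over all genes, the replicate block moved the count that passed from 649 to 843 for CB against isotype, from 5 to 23 for anti-PD-L1 against isotype, from 0 to 9 for anti-Lag3 against isotype, from 56 to 137 for CB against anti-PD-L1, from 105 to 208 for CB against anti-Lag3 and from 0 to 4 for the interaction.

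Counts over all genes moved further with the tool and filter. For CB against isotype, 649 genes passed, 818 without a filter and 838 in DESeq2 against 0, 364 in edgeR and 218 in DESeq2 against 0.2, and 394 to 705 without each sample. For anti-PD-L1 against isotype, 5 passed, 40 without a filter and 50 in DESeq2 against 0, with 2 and 11 against 0.2 in edgeR and DESeq2 and 0 to 10 without each sample. For CB against anti-PD-L1 the 56 became 150, 149, 3 and 16 under those settings and 21 with only the 2 groups, with 4 to 57 without each sample. For CB against anti-Lag3 the 105 became 252, 225, 39 and 40, with 42 to 125 without each sample. Without a filter 14 passed for anti-Lag3 against isotype, 2 for anti-PD-L1 against anti-Lag3 and 10 for the interaction. Depth limits Ly6d most, which rests on 13 to 209 reads per library.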
